A study of Mus musculus with 12 samples.

Results

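The neural crest genes described here are 10 of the 54532 genes in an RNA sequencing table of mouse melanoma cells, found by their Ensembl IDs. They are the transcription factor genes Sox9, Sox5, Sox6, Pax3, Tfap2a, Tfap2c, Msx1 and Msx2, the receptor gene Ngfr and the intermediate filament gene Nes. The 12 libraries formed 4 groups of 3. All carried the same label for the cell line, whose genotype, shared by all 4 groups, includes an activated BRAF kinase and is not given in full here. The group NTC was a non-targeted control, and Gli2CA is the group labelled as carrying an active mutant of Gli2, a transcription factor of the Hedgehog pathway. Cas9-NTC was the non-targeted control of a CRISPR experiment, and Cas9-Gli2KO is the group labelled Gli2 knockout. All cells grew in DMEM with 10% serum and puromycin at 1 ug/mL, and the medium of both Cas9 groups also held blasticidin at 10 ug/mL. The labels give no guide sequence, promoter or clone number. Nothing in them tells separate cultures from repeat preparations, and the p-values below then rest on a spread that may be technical.

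The neural crest is an embryonic cell population that arises at the border of the neural plate, migrates through the embryo and gives rise to melanocytes, Schwann cells, peripheral neurons and much of the facial skeleton. Pax3, Msx1, Msx2 and the AP-2 factors act early at that border. SOX factors of the SoxE group, among them Sox9 and Sox10, act in the crest itself and in its derivatives, and Sox5 and Sox6 encode partners of Sox9 in cartilage. In melanoma, low levels of melanocyte genes together with high NGFR or SOX9 mark cell states described as neural crest-like or undifferentiated.

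Levels are FPKM, fragments or reads scaled to the length of the gene and the size of the library. Depth recovered from the values was 15971100 to 25980100 reads per library. Of the 10 genes, 9 reached 1 FPKM in at least 3 of the 12 libraries and were tested among the 11860 genes that did so. Tfap2c did not. Gli2 itself had 0 reads in all NTC libraries, where a limit of 3 reads is 0.0272 FPKM or less, and 1, 0 and 5 reads in Gli2CA (2-sided exact permutation p = 0.4, n = 3 and 3, where 0.1 is the smallest possible). Reads on the mouse Gli2 gene thus do not bear out the Gli2CA label, and the labels do not say what construct was used or from which species. It had 29, 61 and 42 reads in Cas9-NTC and 130, 140 and 345 reads in the libraries labelled Gli2 knockout. Gli2 RNA was thus higher under the knockout label, not lower (2-sided exact permutation p = 0.1, n = 3 and 3, the smallest possible). RNA level alone does not show whether the Gli2 protein was lost, which was not tested. Every direction given below for either altered group is a direction in libraries so labelled. Library 3 of that group stood apart from the others: its root mean square log2 difference from libraries 1 and 2 was 0.654 and 0.523 over the tested genes, against 0.2543 between libraries 1 and 2 and at most 0.309 within any other group. FPKM sums were 407846, 370982 and 293496 in libraries 1, 2 and 3 labelled Gli2 knockout, against 306661 to 361790 in the other groups.

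The identity of the cells was checked against marker lists. Of 10 melanocyte markers, Mitf, a master regulator of the pigment lineage, was the sole one with a mean of 1 FPKM or more in any group. It stood at 1.03 ± 0.103 FPKM (SD, n = 3) in NTC and 2.67 ± 0.0418 in Cas9-NTC. The pigment genes Tyrp1, Dct, Slc45a2 and Oca2 were at 0 in all 12 libraries. Of 8 cartilage cell markers none reached 1 FPKM, Acan, Matn1 and Hapln1 were at 0 throughout, and their summed level was 0 to 0.362 FPKM.

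Promoter sequences are shown first for Ngfr, Nes, Msx1 and Msx2. Among the genes with 1 start site in the table used, these had the widest folds between NTC and Cas9-NTC, given below. Sox5, also with 1 start site, had a narrower fold. Sox6 had a wider fold than Nes and Msx2 but has more than 1 start site. Of the 10 genes, 7 matched the RefSeq promoter table (GRCm38.p6), with 13 start sites. For Ngfr, Nes, Msx1 and Msx2 the 250 bases before the start site are printed 5′ to 3′ on the strand of the gene, with each CpG dinucleotide in capitals. They lie at chr11:95587699-95587948 (minus strand, Ngfr), chr3:87970843-87971092 (plus strand, Nes), chr5:37824586-37824835 (minus strand, Msx1) and chr13:53472781-53473030 (minus strand, Msx2).
Ngfr: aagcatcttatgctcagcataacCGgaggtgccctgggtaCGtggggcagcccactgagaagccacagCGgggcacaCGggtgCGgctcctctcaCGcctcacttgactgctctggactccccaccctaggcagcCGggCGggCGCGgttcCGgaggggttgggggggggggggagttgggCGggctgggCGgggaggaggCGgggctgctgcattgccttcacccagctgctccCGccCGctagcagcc
Nes: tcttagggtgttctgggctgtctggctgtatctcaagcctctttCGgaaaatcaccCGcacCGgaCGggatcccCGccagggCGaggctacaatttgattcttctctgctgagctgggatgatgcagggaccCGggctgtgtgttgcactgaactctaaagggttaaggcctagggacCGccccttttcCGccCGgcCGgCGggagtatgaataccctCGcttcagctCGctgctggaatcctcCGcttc
Msx1: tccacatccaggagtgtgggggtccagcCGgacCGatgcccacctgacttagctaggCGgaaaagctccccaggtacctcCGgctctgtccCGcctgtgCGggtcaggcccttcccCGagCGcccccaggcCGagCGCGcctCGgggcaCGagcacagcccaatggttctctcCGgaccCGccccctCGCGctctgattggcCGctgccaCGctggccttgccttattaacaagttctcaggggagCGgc
Msx2: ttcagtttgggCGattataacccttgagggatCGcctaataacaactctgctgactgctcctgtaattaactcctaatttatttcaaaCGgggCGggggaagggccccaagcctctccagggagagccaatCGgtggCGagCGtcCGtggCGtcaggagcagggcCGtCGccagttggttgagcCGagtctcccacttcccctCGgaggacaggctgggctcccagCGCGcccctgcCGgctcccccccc

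These stretches held 16 CpG in Ngfr, 15 in Nes, 20 in Msx1 and 16 in Msx2, against a median of 6 over the 32851 promoters of the table. Among these printed genes, those higher in NTC and Msx1, which was higher in Cas9-NTC, thus all lay above the median. Of the other matched genes, all higher in NTC, Sox5 had 3 CpG, Tfap2a 10 at each start and Sox6 1 to 10 by start. CpG number thus did not go with the direction of the difference. On both strands, the letters GACCACCCA, bound by GLI factors, were in 0 of the 13 promoters of the set and in 0.225% of all promoters. The palindrome GCCNNNGGC, bound by AP-2 factors, was in 0 of the 13 and in 13.7% of all. The letters ACAATG, bound by SOX factors, were in 1 start of Sox5 and 2 of Sox6 and in 10.7% of all promoters. A match describes letters in a window of 250 bases and says nothing of binding.

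The levels of the genes in the starting lines come first, since each altered line was set beside its own control. The control lines carried the same cell line label, yet all 9 tested genes differed between them. Ngfr, Nes, Pax3, Tfap2a, Sox5, Sox6 and Msx2 were lower in Cas9-NTC than in NTC, and Sox9 and Msx1 were higher. Over all tested genes 48.9% were called in this comparison, 24% higher and 24.9% lower, so that a call here was common. In addition, Sox5, Sox6, Msx2 and Ngfr would not have passed the filter on the Cas9 libraries alone, nor Msx1 on the NTC and Gli2CA libraries, so the filter favoured a difference between the lines for these 5 genes. The control lines also differ in blasticidin and Cas9, and what of the difference goes with these cannot be told apart. In bulk RNA, fewer cells that express a gene and less RNA per cell cannot be told apart either.

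**Figure D1:**
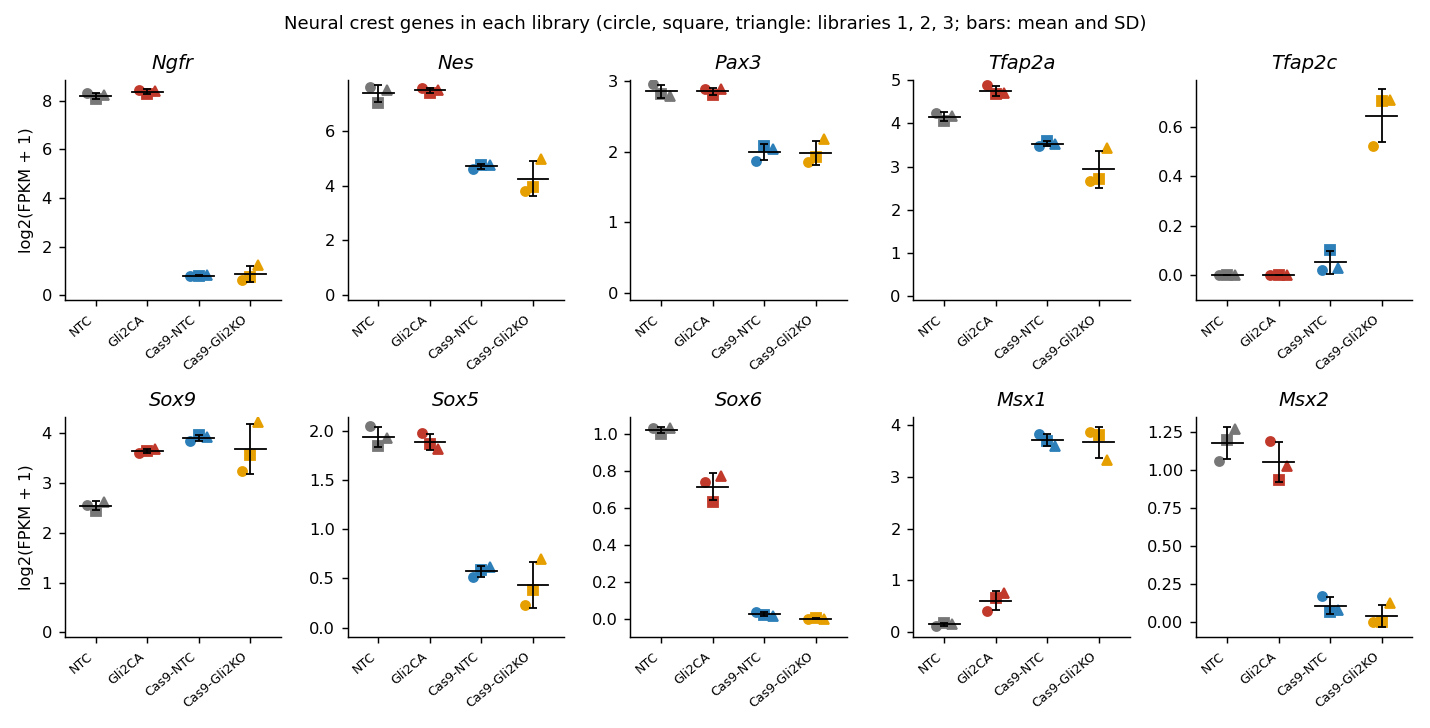
Level of each of the 10 genes in each library, as log2(FPKM + 1), by group, with circles, squares and triangles for libraries 1, 2 and 3 and bars for the mean and SD of 3 libraries. Ngfr and Nes are high in NTC and Gli2CA and low in both Cas9 groups, Msx1 is the reverse, and Sox9 is lowest in NTC.

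Ngfr encodes the low-affinity neurotrophin receptor p75, a surface marker of migrating neural crest cells. It stood at 315, 269 and 302 FPKM in NTC and at 0.736, 0.732 and 0.782 FPKM in Cas9-NTC, the latter on 43, 64 and 70 reads. All NTC libraries lay far above all Cas9-NTC libraries, the widest gap of the 10 genes. The mean was 394-fold lower in Cas9-NTC (295 ± 23.4 against 0.75 ± 0.0275 FPKM, SD, n = 3), and the change on the log2(FPKM + 1) scale was -7.40 with a standard error of 0.14 (limma, adjusted p = 3.73e-12).

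Nes encodes nestin, an intermediate filament protein of neural and neural crest progenitors. It stood at 194, 131 and 180.5 FPKM in NTC and 23.5, 26.1 and 26.1 in Cas9-NTC. It was second to Ngfr in NTC and the most abundant of the 10 genes in Cas9-NTC. The fall was 6.68-fold (log2 change -2.67, standard error 0.26, limma adjusted p = 4.59e-06).

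Among the early border factors, Msx1 and Msx2 stood in opposite order in the control lines. These are closely related homeobox genes that respond to BMP signals. Msx1 had 6, 7 and 6 reads in NTC, or 0.0849, 0.133 and 0.121 FPKM, and 13.1, 11.9 and 11 FPKM in Cas9-NTC. Its mean was 107-fold higher in Cas9-NTC (log2 change 3.55, standard error 0.14, limma adjusted p = 2.00e-09). Msx2 had 1.08, 1.29 and 1.40 FPKM in NTC and 0.126, 0.0481 and 0.0587 FPKM, on 7, 4 and 5 reads, in Cas9-NTC. Its mean was 16.2-fold lower there (log2 change -1.07, standard error 0.09, limma adjusted p = 2.01e-06). The longest run of coding bases that the pair shares is 22 bases.

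Pax3, a paired-box factor that acts upstream of Mitf in the pigment lineage, stood at 6.77, 6.06 and 5.89 FPKM in NTC and 2.63, 3.24 and 3.10 FPKM in Cas9-NTC. The fall was 2.09-fold (log2 change -0.86, standard error 0.10, limma adjusted p = 2.65e-05). Pax3 was lower and Mitf 2.58-fold higher in Cas9-NTC (Mitf log2 change 0.85, limma adjusted p = 2.94e-06).

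The AP-2 factor gene Tfap2a, needed in mouse for cranial neural crest development, had 18, 15.5 and 17.0 FPKM in NTC and 10.1, 11.1 and 10.5 FPKM in Cas9-NTC. The groups did not overlap, and the fall was 1.60-fold (log2 change -0.63, standard error 0.17, limma adjusted p = 0.0106). The call was lost when libraries were rescaled to a common FPKM total (adjusted p = 0.0648). Its relative Tfap2c had 0 reads in all NTC and Gli2CA libraries, where a limit of 3 reads is 0.0511 FPKM or less, and 1, 7 and 2 reads in Cas9-NTC.

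The 3 SOX genes did not move together between the control lines. Sox9 stood at 4.88, 4.45 and 5.18 FPKM in NTC and 13.4, 14.6 and 14.1 FPKM in Cas9-NTC, 2.90-fold higher (log2 change 1.37, standard error 0.19, limma adjusted p = 0.000103). Its partners were lower. Sox5 had 3.13, 2.59 and 2.80 FPKM in NTC and 0.427, 0.502 and 0.535 FPKM in Cas9-NTC, a 5.81-fold fall (log2 change -1.37, standard error 0.12, limma adjusted p = 1.39e-06). Sox6 had 1.05, 1.00 and 1.05 FPKM in NTC and 7, 5 and 5 reads in Cas9-NTC, a 57.3-fold fall (log2 change -1.0, standard error 0.07, limma adjusted p = 3.58e-07).

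Sox10, the other SoxE gene of the crest and not one of the 10, had 188.5 ± 10.6 FPKM in NTC and 0.028 ± 0.0291 in Cas9-NTC (SD, n = 3). It was thus highest where Sox9 was lowest. The longest run of coding bases shared by Sox9 and Sox10 is shown because reads inside it could be assigned to either gene. It covers bases 247 to 290 of the Sox9 coding sequence in GENCODE M21 (GRCm38), on chromosome 11.
Sox9 and Sox10: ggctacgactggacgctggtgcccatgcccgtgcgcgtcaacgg

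The run is 44 bases of a coding sequence of 1524 bases, and in Cas9-NTC Sox10 was near 0 while Sox9 stood at its highest control level. In NTC and Gli2CA, Sox10 stood at 188.5 and 162.3 FPKM and Sox9 at 4.84 and 11.5. Whether reads of Sox10 were counted for Sox9 was not tested. The exons of Sox9, Sox6, Ngfr, Pax3, Nes, Msx1, Msx2 and Tfap2c overlap no other annotated gene. Of the 14376 exonic bases of Sox5, 1330 overlap the antisense gene Sox5os1. Those of Tfap2a overlap the antisense genes Gm47061, Gm26688 and Gm47067 over 265, 380 and 73 bases. Whether strand was used in counting is not given in the sources used here, so reads in these stretches cannot be told apart.

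Several other genes of the neural crest programme also stood lower in Cas9-NTC, and their counts are set beside the 24.9% of all tested genes that were lower and the 24% that were higher. Of 13 tested of 18 neural crest specifiers, 7 were lower and 2 higher, with a median log2 change of -0.76 against 0.0155 over all tested genes. Besides Sox10 they included Foxd3, a factor that keeps crest cells undifferentiated, at 54.4 ± 8.43 FPKM in NTC and 1.83 ± 0.167 in Cas9-NTC (29.7-fold lower, limma adjusted p = 1.05e-09). Of 15 tested of 23 crest receptor and adhesion genes, 11 were lower and 2 higher (median -1.82). Erbb3, the neuregulin receptor of crest and Schwann cells, fell 475-fold from 67.0 ± 2.87 to 0.141 ± 0.0787 FPKM (limma adjusted p = 4.72e-13). Of 9 tested of 12 Schwann cell lineage genes, 8 were lower (median -2.41), among them Cdh19, a cadherin gene of Schwann cell precursors, at 65.4 ± 3.73 FPKM in NTC and 0.00607 ± 0.00526 in Cas9-NTC. Of these tested genes, 3 specifiers (Sox10, Mycn and Rxrg), 3 receptor and adhesion genes (Erbb3, Robo2 and L1cam) and 5 Schwann lineage genes would not have passed the filter on the Cas9 libraries alone, so the filter favoured a lower level there, while Cxcr4 and Prx would not have passed on the NTC and Gli2CA libraries.

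Of 7 tested of 14 neural plate border factors 4 were lower and 2 higher. Dlx3 and Irx3 would not have passed the filter on the Cas9 libraries alone, nor Zic2 and Zic5 on the NTC and Gli2CA libraries. The filter thus favoured a difference between the lines for these genes. Of 4 tested of 8 AP-2 genes and cofactors 3 were lower, among them Tfap2b at 51.8 ± 4.83 and 16.7 ± 1.06 FPKM (3.10-fold, limma adjusted p = 5.57e-05), and Cited2, a coactivator of AP-2 factors, was higher. Of the 8 tested of 14 neurotrophins and p75 partners 2 were higher and 2 lower. Bdnf, a ligand of p75, was higher, at 1.45 ± 0.0559 and 5.86 ± 0.152 FPKM in NTC and Cas9-NTC, and Sort1, a p75 co-receptor for precursors of neurotrophins, was 2.44-fold lower. Of 6 tested of 10 filament genes beside Nes 2 were higher and 3 lower. Of 6 tested of 16 other SOX genes 2 were higher and 3 lower. Gfap, Synm and Sox10 would not have passed the filter on the Cas9 libraries alone, nor Sox7 and Sox21 on the NTC and Gli2CA libraries. The filter favoured a difference between the lines for these as well. Of 17 cartilage genes that Sox9, Sox5 and Sox6 activate in chondrocytes, 2 were above the filter, Col27a1 and Wwp2. Both were higher in Cas9-NTC. Col27a1 would not have passed the filter on the NTC and Gli2CA libraries, so its higher level in Cas9-NTC was favoured by the filter. Wwp2 was 1.31-fold higher, and its call was lost under at least 1 alternative. The other 15 cartilage genes, Col2a1 and Acan among them, lay below the filter.

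**Figure D2:**
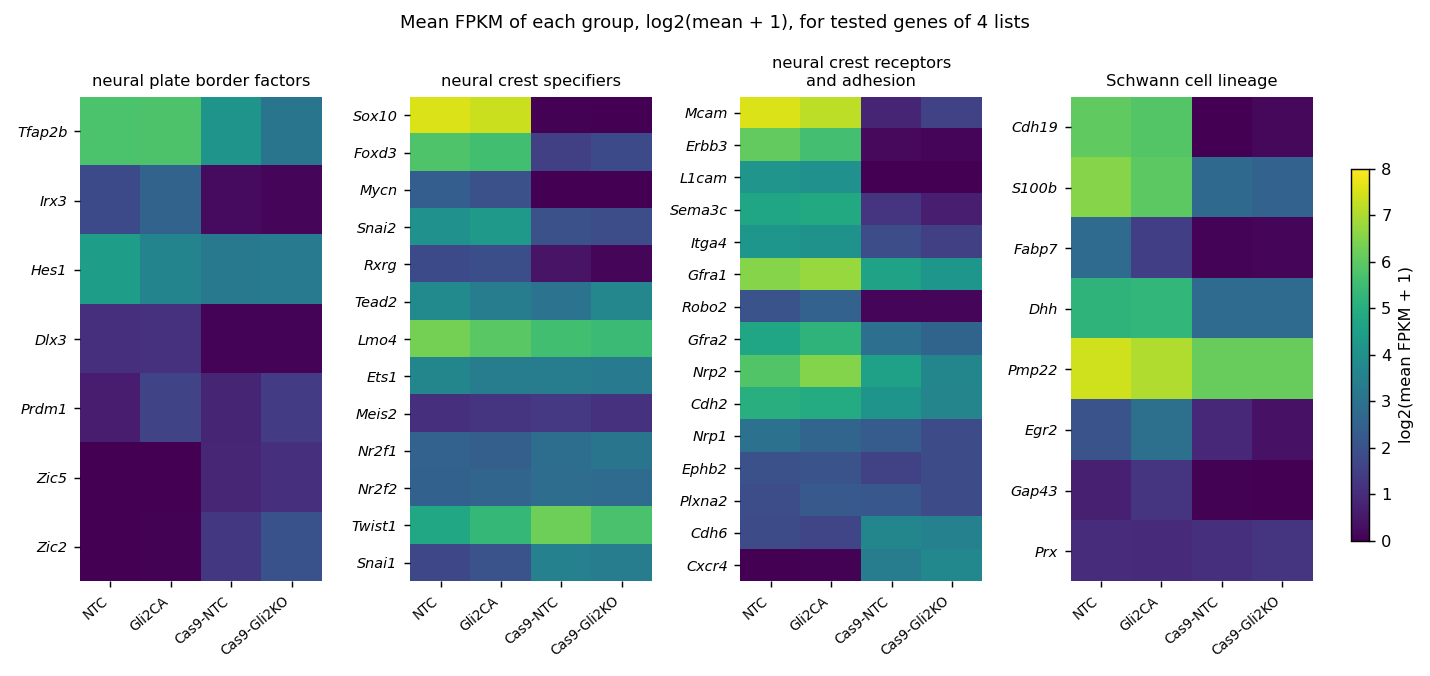
Mean FPKM of each group, as log2(mean + 1), for tested genes of 4 lists of neural crest genes (1 Schwann cell lineage gene is not drawn), with 1 row for each gene and 1 column for each group of 3 libraries. Sox10, Foxd3, Erbb3, Mcam and Cdh19 are bright in NTC and Gli2CA and dark in both Cas9 groups, while Cxcr4 and Zic2 show the reverse.

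Markers of other cell types were read beside these differences. Of 10 fibroblast markers 5 were tested, and 4 were higher and 1 lower in Cas9-NTC, beside 24% and 24.9% of all tested genes. Pdgfrb and Fap would not have passed the filter on the NTC and Gli2CA libraries, nor Col1a1 on the Cas9 libraries alone. The filter thus favoured the direction found for each of these genes. The summed level of the 10 fibroblast markers was 79.5 to 89.1 FPKM in NTC and 240.8 to 252.5 in Cas9-NTC. Lum was at 0 in both groups, and Col3a1 alone made up 92% and 93.4% of the sum. Summed endothelial markers were 4.50 to 5.40 and 10.3 to 11.4 FPKM with Cldn5 at 0, summed leukocyte markers were 1.78 to 2.94 and 9.53 to 9.74 FPKM with Cd3e at 0, and summed keratinocyte markers were 2.51 to 3.17 and 4.62 to 5.33 FPKM with Krt1 at 0. These sums also rested on 1 or 2 genes: Flt1 gave 97.7% of the endothelial sum in NTC and Flt1 and Cdh5 gave 73% and 25.6% in Cas9-NTC, Cd68 gave 57.6% and 96.3% of the leukocyte sum, and Krt10 and Krt18 led the keratinocyte sum in NTC and Cas9-NTC. They are thus levels of these genes rather than of a cell class. The part of these in the differences of the 10 genes was not tested.

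In the libraries labelled Gli2CA, Sox9 and Tfap2a were higher and Sox6 was lower than in NTC. The comparison asks which genes differ in cells labelled as carrying active Gli2. Of the 9 tested genes 3 were called, beside 14.2% of all tested genes, 8.45% higher and 5.76% lower. The median log2 change was 0.12 over the 9 genes and 0.0034 over all tested genes.

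Sox9 had the largest change on the log2(FPKM + 1) scale, while by ratio of means that of Msx1, given below, was larger. It stood at 4.88, 4.45 and 5.18 FPKM in NTC and 11.1, 11.4 and 12 FPKM in Gli2CA, so every Gli2CA library was above every NTC library. The mean rose 2.38-fold (11.5 ± 0.418 against 4.84 ± 0.364 FPKM, SD, n = 3), a log2 change of 1.10 with a standard error of 0.19 (limma, adjusted p = 0.00243). Under the alternatives run, its adjusted p ranged from 2.78e-06 to 0.0318. Sox9 in Gli2CA came near its level in Cas9-NTC, 14.0 ± 0.636 FPKM, without reaching the lowest of those libraries, at 13.4 FPKM.

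Tfap2a had 18, 15.5 and 17.0 FPKM in NTC and 28.7, 24.5 and 25.3 FPKM in Gli2CA. The groups did not overlap. The mean rose 1.55-fold (log2 change 0.61, standard error 0.17, limma adjusted p = 0.0389). The call was lost with libraries rescaled to a common total (adjusted p = 0.247), with a pseudocount of 0.1 (0.0518), without the filter (0.0785), with the replicate number as a block (0.0524), and on leaving out any 1 of the 9 libraries of NTC, Gli2CA and Cas9-NTC (0.0586 to 0.143). Tfap2b, its paralog, had 51.8 FPKM in NTC and 52.9 in Gli2CA, and Tfap2c stayed at 0 in both.

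Sox6 fell from 1.05, 1.00 and 1.05 FPKM in NTC to 0.671, 0.552 and 0.709 in Gli2CA. All Gli2CA libraries lay below all NTC libraries. The fall was 1.60-fold (log2 change -0.31, standard error 0.07, limma adjusted p = 0.0145). It was lost with a pseudocount of 0.1 (adjusted p = 0.0878) and without Gli2CA library 2 (0.0707). Sox6 passed the filter through the 3 NTC libraries alone, so a lower level in Gli2CA was favoured by the filter, and on leaving out any 1 NTC library it was no longer tested. In the fit without a filter its adjusted p was 0.0015. That value may be too liberal, since all groups share the spread and Sox6 was near 0 in both Cas9 groups. Sox5, its close relative and fellow partner of Sox9, had 3.13, 2.59 and 2.80 FPKM in NTC and 2.92, 2.63 and 2.53 FPKM in Gli2CA, with overlap (log2 change -0.05, standard error 0.12, limma adjusted p = 0.842). Neither partner was called higher in the line where Sox9 was.

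Msx1 was near its limit of detection in NTC, at 6, 7 and 6 reads, and had 16, 33 and 40 reads in Gli2CA. In FPKM these are 0.0849, 0.133 and 0.121 against 0.323, 0.589 and 0.686, without overlap. The mean was 4.72-fold higher, but on the log2(FPKM + 1) scale, which compresses low values, the change of 0.45 with a standard error of 0.14 was not called (limma, adjusted p = 0.058). A pseudocount of 0.1 gave a call (log2 change 1.53, adjusted p = 0.00106, against 1.24 for Sox9), as did the recovered reads with voom (0.0267), rescaled libraries (0.0223), a fit of NTC and Gli2CA alone (0.0173), and leaving out Gli2CA library 1 (0.0478) or library 1 or 3 labelled Gli2 knockout (0.0419 and 0.00398). Even so, Msx1 in Gli2CA was far below the 11 to 13.1 FPKM of Cas9-NTC.

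The other genes were not called in Gli2CA. Ngfr was the most abundant of the set in both groups, at 315, 269 and 302 FPKM in NTC and 352, 309 and 335 FPKM in Gli2CA. These ranges overlap (log2 change 0.17, standard error 0.14, limma adjusted p = 0.518). Nes, at 194, 131 and 180.5 FPKM in NTC and 192.5, 169.7 and 179.7 FPKM in Gli2CA, overlapped as well (log2 change 0.12, standard error 0.26, limma adjusted p = 0.848). NTC library 2 was the low one for both genes. Pax3 had 6.37, 5.93 and 6.37 FPKM in Gli2CA, inside the range of NTC, and a log2 change of -0.0022 (standard error 0.10, limma adjusted p = 0.998). Msx2 had 1.28, 0.91 and 1.04 FPKM, overlapping NTC (log2 change -0.12, standard error 0.09, limma adjusted p = 0.48). The standard error of Nes was the largest of the 9 genes. It comes from the spread within all 4 groups, where Nes had 12.9, 14.5 and 30.6 FPKM in the libraries labelled Gli2 knockout.

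**Figure D3:**
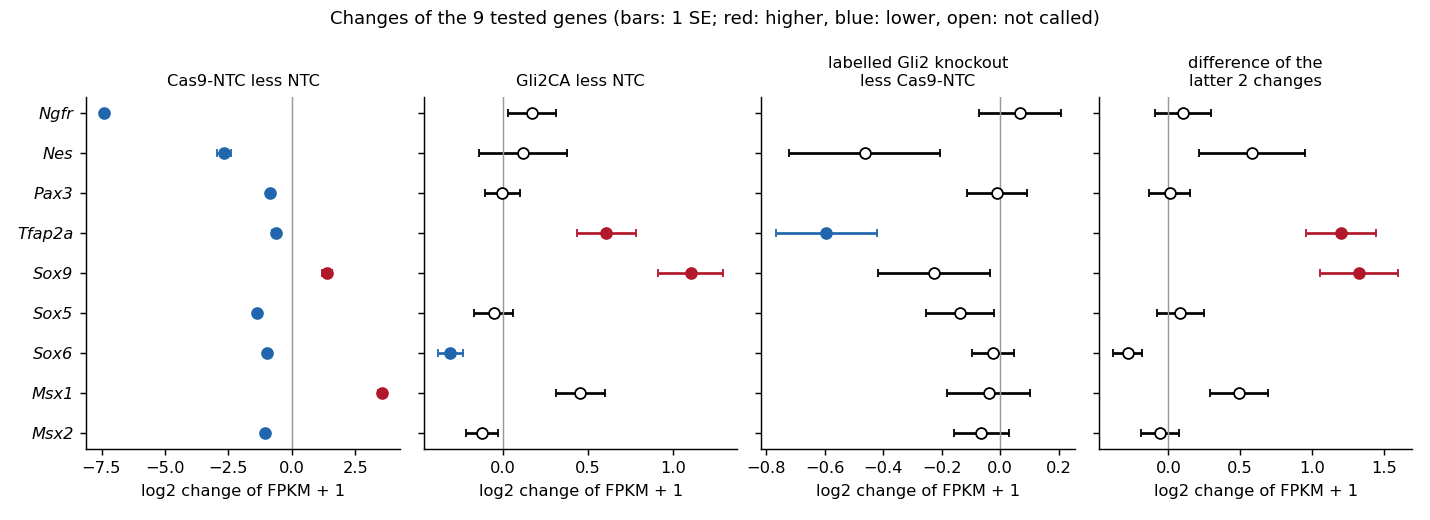
Change of each of the 9 tested genes on the log2(FPKM + 1) scale in 4 comparisons, with bars of 1 standard error, filled red where called higher, filled blue where called lower and open where not called. The scales of the panels differ: the control lines span -7.40 to 3.55, while the changes in Gli2CA span -0.31 to 1.10.

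Beside the 10 genes, some intermediate filament and neurotrophin genes were higher in Gli2CA, where 8.45% of all tested genes were higher and 5.76% lower. Of 6 tested of 10 filament genes 3 were higher, with Nes itself not called. The neurofilament genes Nefm and Nefl rose from 30.2 ± 6.88 to 188.9 ± 6.68 FPKM and from 120.4 ± 2.38 to 358.9 ± 6.21 FPKM (SD, n = 3; limma, adjusted p = 5.92e-06 and 1.58e-07). Of 8 tested of 14 neurotrophins and p75 partners 3 were higher. Among them were Lingo1, a co-receptor of p75 in neurons, from 0.987 ± 0.0818 to 5.40 ± 0.401 FPKM, and Bdnf from 1.45 ± 0.0559 to 2.52 ± 0.144. Lingo1 would not have passed the filter without the Gli2CA libraries. Its means elsewhere were 0.395 FPKM (Cas9-Gli2KO), 0.613 FPKM (Cas9-NTC) and 0.987 FPKM (NTC). The filter thus favoured its call as higher, and with it the count of 3 higher genes in that list.

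Crest specifiers and Schwann genes were mixed in Gli2CA. Of 13 tested specifiers 1 was higher, the mesenchymal factor Twist1 at 1.47-fold, and 2 were lower, Mycn and Lmo4. Of 9 tested Schwann lineage genes 2 were higher, among them Egr2, a driver of myelination, at 2.12-fold, and 4 were lower, among them Fabp7 at 3.29-fold and S100b at 1.48-fold. Of 7 tested border factors Prdm1 and Irx3 were higher and Hes1 was lower. Among the 15 tested receptor and adhesion genes Robo2 was higher and Erbb3 lower, and Cited2 was the 1 higher gene of 4 tested AP-2 genes and cofactors. Of the 2 tested cartilage genes, Col27a1 was lower, at 0.514 ± 0.0358 against 0.902 ± 0.127 FPKM, while Sox9 was higher. Of the 24 called genes picked for naming in this comparison, cell type markers included, 10 lost their call under at least 1 alternative. Among these were Cited2, Col27a1, Erbb3, Irx3, Mycn, Robo2, S100b, Twist1 and the fibroblast marker Col1a1.

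Markers of other cell types also differed between Gli2CA and NTC. The leukocyte markers summed to 7.37 to 8.92 FPKM in Gli2CA and 1.78 to 2.94 in NTC, mostly Cd68, which was 4.95-fold higher (7.17 ± 0.825 against 1.45 ± 0.427 FPKM, SD, n = 3; limma, adjusted p = 3.82e-06), with Cd3e and Itgam at 0 in both. The endothelial markers summed to 20.4 to 23.2 FPKM against 4.50 to 5.40, and 97.8% of the sum in Gli2CA was Flt1, which was 4.33-fold higher (limma, adjusted p = 5.70e-05), with Emcn and Cldn5 at 0 in both. The fibroblast sums were 90.4 to 103.1 and 79.5 to 89.1 FPKM, with Pdgfra 1.95-fold higher and Col1a1 1.95-fold lower, and Lum and Fap at 0 in both. The keratinocyte sums were 3.30 to 3.96 and 2.51 to 3.17 FPKM, with Krt18 4.59-fold higher (limma, adjusted p = 0.00411) and Krt1 and Dsg3 at 0 in both. The part of these in the differences of the 10 genes was not tested.

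The libraries labelled Gli2 knockout were set beside Cas9-NTC, and 1 of the 9 tested genes was called, Tfap2a, which was lower. Over all tested genes 26.8% were called, 11.2% higher and 15.7% lower. For 4 of the 9 genes, Sox9, Sox5, Ngfr and Nes, libraries 1 and 2 lay below every Cas9-NTC library and library 3 above. Among all tested genes 13.5% showed that pattern and 12.6% its reverse, which 0 of the 9 genes showed. A mean over these 3 libraries thus averages values on both sides of the control.

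Tfap2a stood at 10.1, 11.1 and 10.5 FPKM in Cas9-NTC and 5.29, 5.58 and 9.80 FPKM in libraries 1, 2 and 3 labelled Gli2 knockout. Each of the latter was below each control, library 3 by the smallest step. The fall was 1.53-fold (log2 change -0.60, standard error 0.17, limma adjusted p = 0.0292). In a fit of the Cas9 groups alone the adjusted p was 0.158, without the filter it was 0.0634, and leaving out any 1 Cas9-NTC library or library 1 or 2 of the labelled group gave 0.0668 to 0.122. Without library 3 the log2 change was -0.84 (adjusted p = 9.11e-06).

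Tfap2c, the gene for a related AP-2 factor active in trophoblast, germ cells and early ectoderm, was detected above traces in this group alone. It had 37, 53 and 55 reads, or 0.436, 0.632 and 0.636 FPKM, against 1, 7 and 2 reads, or 0.016, 0.075 and 0.0209 FPKM, in Cas9-NTC. All 3 labelled libraries, library 3 included, lay above all controls. The mean was 15.2-fold higher (0.568 ± 0.114 against 0.0373 ± 0.0327 FPKM, SD, n = 3). The 2-sided exact permutation p was 0.1, the smallest that 3 against 3 libraries can give. A limma fit without the filter gave an adjusted p of 6.05e-05, which is too liberal, since it shares its spread with groups at 0. Tfap2c and Tfap2a therefore differed in opposite directions, and their longest shared coding run is 17 bases.

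Nes had 23.5, 26.1 and 26.1 FPKM in Cas9-NTC and 12.9, 14.5 and 30.6 FPKM in the labelled libraries. The 3 libraries lay on both sides of the controls (log2 change -0.46, standard error 0.26, limma adjusted p = 0.181). Sox9 had 13.4, 14.6 and 14.1 FPKM in Cas9-NTC and 8.49, 10.8 and 17.9 FPKM in the labelled libraries (log2 change -0.23, standard error 0.19, limma adjusted p = 0.368). Sox5 followed the same order at a lower level, 0.172, 0.305 and 0.616 FPKM against 0.427 to 0.535 in the controls (limma adjusted p = 0.366). Ngfr, on 44, 53 and 111 reads, had 0.554, 0.674 and 1.37 FPKM against 0.732 to 0.782 in the controls (log2 change 0.07, limma adjusted p = 0.729).

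Without library 3, in a fit of the remaining 11 libraries, 4 genes were called lower: Tfap2a, Nes (log2 change -0.83, adjusted p = 0.000292), Sox9 (-0.51, 0.000596) and Sox5 (-0.27, 0.0269). In that fit 7717 of 11752 genes were called, so that a call was more common than not, and the count for the 4 genes is read against that. The log2 change of Ngfr turned from 0.07 to -0.12 and that of Msx1 from -0.04 to 0.13, neither of them called. Whether library 3 or libraries 1 and 2 stand for the labelled line cannot be told apart from these data. Gli2 had its highest level, 2.14 FPKM, in library 3 and 0.82 and 0.894 FPKM in libraries 1 and 2.

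**Figure D4:**
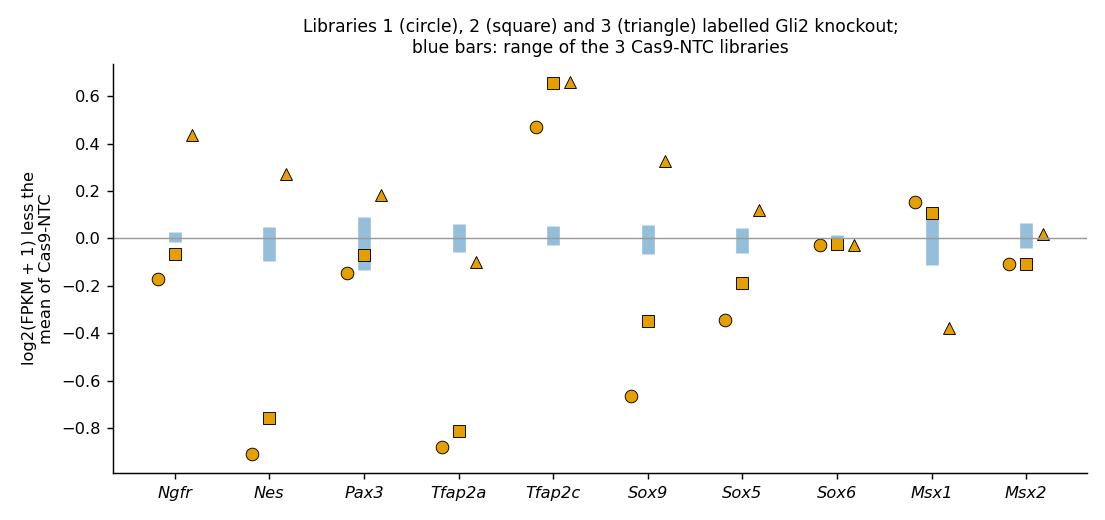
Each library labelled Gli2 knockout as log2(FPKM + 1) less the mean of the 3 Cas9-NTC libraries, for the 10 genes, with blue bars for the range of the Cas9-NTC libraries. For Sox9, Sox5, Ngfr and Nes libraries 1 and 2 are below the bars and library 3 is above them, while Tfap2c is above the bar in all 3.

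The remaining genes were close to the controls or close to 0. Pax3 had 2.60, 2.80 and 3.52 FPKM in the labelled libraries, around the 2.63 to 3.24 FPKM of Cas9-NTC (log2 change -0.01, standard error 0.10, limma adjusted p = 0.953). Msx1 had 13.5, 13.0 and 9.0 FPKM against 11 to 13.1 FPKM, and here library 3 was the low one (log2 change -0.04, standard error 0.14, limma adjusted p = 0.853). Msx2 had 0, 0 and 7 reads against 7, 4 and 5, and Sox6 had 0, 1 and 0 reads against 7, 5 and 5. For Sox6, 1 read over the group is below the limit of 3 reads, so no fold is given; its change was not called on the log2 scale (limma, adjusted p = 0.816), and with voom on recovered reads it was lower (adjusted p = 0.00734).

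Most of the other filament genes were lower in the libraries labelled Gli2 knockout, where 15.7% of all tested genes were lower and 11.2% higher. Of 6 tested filament genes 5 were lower, among them Nefm, at 36.2 ± 11.1 against 66.5 ± 3.09 FPKM, and Nefl, at 71.2 ± 2.19 against 129.6 ± 3.67 (SD, n = 3; limma, adjusted p = 0.00963 and 1.89e-05). Vim, the main mesenchymal filament gene, was 1.63-fold lower (limma adjusted p = 0.00947). Of 4 tested AP-2 genes and cofactors 2 were lower, the AP-2 gene Tfap2b from 16.7 ± 1.06 to 7.68 ± 3.27 FPKM (2.18-fold, limma adjusted p = 0.00391) and the cofactor gene Cited2, while the AP-2 gene Tfap2c was higher in level, as given above. Sox13, which belongs to the same SoxD group as Sox5 and Sox6, was 4.68-fold lower (limma adjusted p = 9.61e-06), and Sox7 was 2.11-fold lower. Both tested cartilage genes, Wwp2 and Col27a1, were lower, at 1.51-fold and 1.54-fold.

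The remaining lists were mixed in the labelled libraries. Of 15 tested receptor and adhesion genes 4 were lower, among them the semaphorin receptor gene Nrp2 at 1.91-fold and its ligand gene Sema3c at 2.21-fold, and 1 was higher, the adhesion gene Mcam, at 2.02 ± 0.573 against 0.769 ± 0.246 FPKM. Of 7 tested border factors Zic2 and Prdm1 were higher and Tfap2b was lower. Of 13 tested specifiers Tead2 was 1.65-fold higher and Twist1 1.45-fold lower. Of 8 tested neurotrophins and p75 partners Bex3, which encodes a protein that binds p75, was 1.86-fold higher, and of 9 tested Schwann lineage genes Egr2 was 2.68-fold lower. In this comparison 24 called genes were picked for naming, up to 3 from each list with the largest change, cell type markers included. Of these, 17 lost their call under at least 1 alternative, mostly in a fit of the Cas9 groups alone. Sox13, Nefl, Prdm1 and Egr2 kept it under all alternatives that were run.

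Summed marker levels in the labelled libraries were read beside these values. Fibroblast markers summed to 115.8 to 269.1 FPKM, endothelial markers to 8.34 to 24.6 FPKM and leukocyte markers to 1.79 to 2.41 FPKM, against 240.8 to 252.5, 10.3 to 11.4 and 9.53 to 9.74 FPKM in Cas9-NTC. Lum, Cldn5 and Cd3e were at 0 in both groups. Here too single genes carried the sums. Col3a1 gave 84.4% of the fibroblast sum, at 150 ± 79.5 FPKM in the labelled libraries, and Cd68 gave 86.6% of the leukocyte sum and was 5.37-fold lower (limma, adjusted p = 4.76e-06). Of the endothelial pair, Cdh5 was 4.05-fold higher and Flt1 2.36-fold lower (limma, adjusted p = 0.00315 and 0.00317). The part of these in the differences was not tested.

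The change in Gli2CA was compared with the change in the libraries labelled Gli2 knockout in the same fit. These comparisons share no library. Of the 9 genes 2 were called, Sox9 and Tfap2a, beside 28.3% of all tested genes, 16.7% with the more positive change in Gli2CA and 11.6% with the more negative. The difference for Sox9 was 1.33 on the log2 scale with a standard error of 0.27 (limma, adjusted p = 0.00442), made up of 1.10 and -0.23. For Tfap2a it was 1.20 with a standard error of 0.24 (limma, adjusted p = 0.00438), made up of 0.61 and -0.60. Tfap2a was the sole gene of the 9 called in both comparisons, and with opposite signs. For Nes the difference was 0.58 with a standard error of 0.37 (limma, adjusted p = 0.242), for Msx1 0.49 with 0.20 (0.0882) and for Sox6 -0.28 with 0.10 (0.0597). The Msx1 and Sox6 differences are between lines in which these genes differ by 107-fold and 57.3-fold at the start, so the log2(FPKM + 1) scale weighs them unequally. The Sox6 difference was called as more negative in Gli2CA without the filter (-0.28, adjusted p = 0.0129), with rescaled libraries (-0.35, 0.0293), after quantile normalisation (-0.39, 0.0215) and with a pseudocount of 5 (-0.09, 0.0459), but with voom on recovered reads it turned to 2.39 (0.0242). The Msx1 difference was called with a pseudocount of 0.1 (1.57, adjusted p = 0.00543), with rescaled libraries (0.62, 0.0117) and with voom (2.20, 0.0189).

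The genes whose levels followed each of the 9 most closely over the 12 libraries were found by the root mean square distance of centred log2(FPKM + 1) values. For Ngfr the nearest was Sox10, at a distance of 0.193 where Ngfr itself spans 7.83, followed by Col15a1 and the retinaldehyde dehydrogenase gene Aldh1a3. Sox10 stood at 188.5, 162.3, 0.028 and 0.00465 FPKM in NTC, Gli2CA, Cas9-NTC and the libraries labelled Gli2 knockout. For Sox9 they were the potassium channel gene Kcnh2, the ceramide kinase gene Cerk and Bmp2, a BMP ligand. Bmp2 stood at 15.0, 40.5, 37.8 and 31.4 FPKM in the same order of groups, and Sox9 at 4.84, 11.5, 14.0 and 12.4.

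For Tfap2a the nearest were Nt5dc3, Madd and Fbrs. For Nes they were Efnb1, Xylt1 and Gltp, and Efnb1, which encodes an ephrin ligand, stood at 42.0, 43.7, 6.05 and 4.30 FPKM. Msx1 was closest to the tropomyosin gene Tpm2, Adh7 and Dglucy, and Tpm2 stood at 0.0281, 0.428, 9.87 and 9.59 FPKM. Pax3 was closest to Tbc1d10a, Klf11 and Anks6, and Msx2 to Bach1, Bag5 and Glud1. Cotl1 and Chst3 were among the 3 nearest to Sox5, and Zfp239 and Pdzd2 among those nearest to Sox6. The 12 libraries share 4 groups, so likeness here follows the difference between the control lines for most genes, and with a pseudocount of 0.1 the distance of Ngfr to Sox10 grew to 1.10 and that of Msx2 to Bach1 to 1.01.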

How the data were processed

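Polyadenylated RNA of 12 libraries was sequenced after column purification, poly-T bead selection and an NEBNext Ultra II preparation, per the labels' protocols. The authors deposited 1 table of FPKM values. Its aligner, counter, annotation, genome build and strand setting were not given in the sources used here. Symbols, lengths and coordinates came from GENCODE M21 (GRCm38), which held 54495 of 54532 IDs. All 12 libraries were at 0 for 28400 genes. With those lengths 97.8 to 98.4% of values of 20 reads or fewer were whole within 0.02 of a read, which gave depth and read numbers. Limits at 0 reads are 3 reads, and cover counting error only.

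The test was limma 3.58.1 (R 4.3.3) on log2(FPKM + 1), with a trended prior, on the 11860 genes at 1 FPKM or more in at least 3 libraries, with all groups in 1 fit of 8 residual degrees of freedom. A gene was called at a 2-sided p under 0.05 after Benjamini-Hochberg adjustment. Folds are ratios of group means in FPKM. Tfap2c and Gli2 lay below the filter and were compared with exact permutation tests. The procedure was tested on simulated data. The members and lists were chosen with earlier results of these data known. All members are named, with up to 3 called genes of each list with the largest change (up to 2 between the control lines), and the 3 genes nearest to each member; some of these genes and part of the line's genotype are not reported here. Alternatives were other pseudocounts, filters, scalings, fits of 2 groups, a replicate block, voom on recovered reads and leaving out each library. Tables and plots were made with Python 3.11.15, pandas 2.3.3, numpy 2.4.6 and matplotlib 3.10.9.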

Additional observations from a re-analysis of the deposited data

How the results depend on the processing

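The called directions of Sox9 in Gli2CA and of all 9 genes between the control lines held under every alternative run, and so did their calls, except that of Tfap2a between the control lines after rescaling, and wherever a stricter filter or fewer libraries left a gene untested. In a fit of 2 groups alone, 2916 genes were called in Gli2CA, and 762 genes and 0 members in the libraries labelled Gli2 knockout (1 member, Tfap2a, at an unadjusted p under 0.05). With voom 2 members were called in the latter. In a fit of the Cas9 groups alone without library 3, added after seeing the data, 7913 genes and 4 members were called. For the difference of the changes 4 members were called without the filter, 4 after rescaling and 4 with voom. Leaving out 1 library at a time gave 1053 to 3606 genes in Gli2CA, 1271 to 7717 in the libraries labelled Gli2 knockout, 2317 to 7476 for the difference and 4990 to 7637 between the control lines. It gave 1 to 4, 0 to 4, 2 to 4 and 8 to 9 members. In each of the 4, the highest count of genes came without library 3 labelled Gli2 knockout, also where that library is in neither group compared. All groups share 1 estimate of the spread in these fits, so that library, where kept, enters the standard error of every comparison. The causes of the higher counts were not tested.

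The changes that turned sign were all uncalled in the fit as reported. With a pseudocount of 0.1 Msx2 had a difference of 0.28. After rescaling, Nes had -0.0443 in Gli2CA, and the differences were -0.0017 for Sox5, -0.0019 for Ngfr and -0.0027 for Pax3. After quantile normalisation Ngfr and Nes had -0.0041 and -0.0321 in Gli2CA, Pax3 and Msx1 had 0.0294 and 0.0084 in the libraries labelled Gli2 knockout, and the differences were -0.0777 for Ngfr and -0.0359 for Pax3. With voom the differences were 2.39 for Sox6 and 1.97 for Msx2. Without library 3 in the Cas9 groups alone, Ngfr had -0.12 and Msx1 0.13.

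Leaving out 1 library at a time, the change in Gli2CA ranged from -0.0374 to 0.0502 for Pax3 and from -0.0527 to 0.2285 for Nes. In the libraries labelled Gli2 knockout it ranged from -0.1178 to 0.1871 for Ngfr, from -0.107 to 0.0575 for Pax3 and from -0.1365 to 0.1305 for Msx1. The difference ranged from -0.0193 to 0.2123 for Sox5, from -0.0171 to 0.2877 for Ngfr and from -0.0597 to 0.1048 for Pax3.

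The median of all genes shifted to -0.1272 in Gli2CA and -0.1416 in the libraries labelled Gli2 knockout on rescaling. The share of higher among called genes moved from 59.5% to 33.6% in the former, and from 58.9% to 46.4% for the difference. In the libraries labelled Gli2 knockout it was 41.6%, and 29.1% in a fit of those 2 groups. With the replicate number as a block, 1475, 2874, 3100 and 5690 genes and 2, 1, 2 and 9 members were called. The call of Tfap2a in Gli2CA was lost (adjusted p = 0.0524). Same-numbered libraries correlated at -0.1526 to 0.2481 in their deviations, and libraries of different number at -0.2894 to 0.2517. Deviations of 3 libraries from their own mean are tied to each other, so these values cannot tell whether the numbers pair the libraries.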
